A study of Mus musculus with 10 samples.

Results

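Sites of decreased H3K27me3 in Pcl3 knockdown mouse embryonic stem cells (ESCs) were examined gene by gene. The authors compared 1 H3K27me3 ChIP-seq library from cells expressing scramble shRNA, a control hairpin, with 1 library from cells expressing Pcl3 shRNA, and listed 678 sites where the mark was lower in the knockdown. Both were made from Suz12Suz12TAP/+ ESCs of the gene trap line XG122, in which 1 endogenous Suz12 allele carries a TAP tag. All 678 were taken, out of 20518 sites in the 4 lists of the study, which also cover Suz12 binding in scramble cells (8876 sites), Suz12 decrease on Pcl3 knockdown (5722 sites) and Pcl3 binding (5242 sites). Suz12 was read through that tag in the same line. Pcl3 was read through a TAP-tagged Pcl3 expressed in E14 ESCs whose own Pcl3 was knocked down, in 2 libraries, 1 for each of the hairpins shRNA6 and shRNA7. The shRNA cells were selected after lentiviral infection and grown from picked clones, and the number of clones behind each library is not given in the sources used here. A site is listed with its start, end and 1 p-value from the Skellam distribution, the distribution of a difference between 2 read counts. The lists hold no read counts, so the size of a decrease and the depth of a library could not be computed from them, and with 1 library per condition there is no replicate spread. Every count below is therefore a description of these libraries, and the 95% Wilson intervals cover counting error only.

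H3K27me3 is the trimethyl mark that Polycomb repressive complex 2 (PRC2) places on histone H3. Its catalytic subunit is Ezh2 or Ezh1, with Suz12 and Eed as partners, and Polycomb-like proteins such as Pcl3 (also called Phf19) join a portion of the complexes. In ESCs the mark lies mainly over CpG islands at the starts of genes that act later in development, such as the Hox genes, which are kept low until the cells differentiate.

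The sites differed in the sequence they lay on, which is shown for the loci that recur below. The 200 bases at the center of the sites at Hoxb1, Hoxb13 and Wnt3 are given from mm9, plus strand, with CpG in capitals. They are followed by the center of the Suz12 site at Pou3f1, a neural POU factor, which had the most significant and widest Suz12 binding among CpG-dense gene starts with no site of decreased H3K27me3 within 2 kb.
Hoxb1, chr11:96227651-96227850: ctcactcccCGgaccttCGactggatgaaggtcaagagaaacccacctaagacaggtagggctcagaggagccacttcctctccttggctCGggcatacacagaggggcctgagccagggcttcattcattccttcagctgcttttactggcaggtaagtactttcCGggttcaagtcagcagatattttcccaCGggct
Hoxb13, chr11:96056226-96056425: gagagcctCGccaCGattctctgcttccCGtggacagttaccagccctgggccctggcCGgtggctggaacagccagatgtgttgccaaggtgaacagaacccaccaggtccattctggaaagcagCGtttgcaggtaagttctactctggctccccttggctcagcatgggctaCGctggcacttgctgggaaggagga
Wnt3, chr11:103632701-103632900: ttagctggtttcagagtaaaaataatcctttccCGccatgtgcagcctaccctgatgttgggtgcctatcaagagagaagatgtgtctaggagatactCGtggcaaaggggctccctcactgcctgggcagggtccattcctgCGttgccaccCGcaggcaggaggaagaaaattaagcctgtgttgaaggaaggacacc
Pou3f1, chr4:124335376-124335575: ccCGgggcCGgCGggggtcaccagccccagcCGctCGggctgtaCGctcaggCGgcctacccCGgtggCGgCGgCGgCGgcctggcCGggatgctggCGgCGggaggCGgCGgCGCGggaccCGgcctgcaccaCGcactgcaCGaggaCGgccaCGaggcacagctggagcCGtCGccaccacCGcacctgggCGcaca
The Hoxb1, Hoxb13 and Wnt3 windows held 5, 6 and 4 CpG and the Pou3f1 window 28, a high count that follows from how Pou3f1 was chosen.

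The sites with the smallest p-values lay on sequence of another kind. The 234 bases at the center of the sites at Gm10715 and Gm10800, both predicted genes, are given in the same way, with capitals for bases that fall in a 30-base word found once in mm9.
Gm10715, chr9:3035984-3036217: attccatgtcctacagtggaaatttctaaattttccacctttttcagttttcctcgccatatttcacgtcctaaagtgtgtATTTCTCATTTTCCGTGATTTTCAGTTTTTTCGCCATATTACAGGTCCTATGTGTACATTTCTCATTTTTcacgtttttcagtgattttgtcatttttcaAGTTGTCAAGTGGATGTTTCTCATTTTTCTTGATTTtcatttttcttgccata
Gm10800, chr2:98506834-98507067: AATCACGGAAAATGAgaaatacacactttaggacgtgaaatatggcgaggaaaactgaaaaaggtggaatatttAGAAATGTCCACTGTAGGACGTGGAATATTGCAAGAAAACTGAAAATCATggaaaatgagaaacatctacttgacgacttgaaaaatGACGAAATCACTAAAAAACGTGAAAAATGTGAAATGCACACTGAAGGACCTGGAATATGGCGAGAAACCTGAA
In the Gm10715 site, 63.9% of the bases were identical to the base 234 bp further on, the lag with the most identities between 20 and 600 bp. At Gm10800 the best lag was also 234 bp, with 35.3% identical bases. The capitals cover 106 of the 234 bases at Gm10715 and 138 at Gm10800. Reads of 30 bases that align to more than 1 place were discarded by the authors, so in such sites the p-value rests on a portion of the bases.

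Of the 678 sites, 6 had under 50% of their 30-base words unique in mm9, and 5 of these 6 were among the 17 sites with the smallest p-values. They were the sites at Gm10800 (p-value 2.54e-75, 36.4% unique), Gm10801 (7.11e-46, 29.8%), Gm10715 (1.58e-41, 9.42%), Gm11168 (5.88e-27, 7.76%), Gm10720 (2.63e-20, 4.67%) and Gm10717 (7.08e-12, 16.1%). The 4 on chromosome 9 formed 1 run from 3003651 to 3037250. A site 23505 bp from Gm5614 had the next smallest p-value after the first 3 (chr9:35111901-35113950, 1.78e-36) and had 78.9% unique words. Its best lag was again 234 bp, but with only 31.8% identical bases. The site at Chadl, described below and 98.8% unique, reached 31.9% at its best lag, 72 bp. The site at chr11:3001251-3003900, 23332 bp from the start of Pisd-ps1, was also among the 10 smallest (p-value 5.10e-27, 71.1% unique). The median site was unique throughout (100%). Among the Suz12 sites 26 of 8876 (0.293%) had under 50% unique words, beside 6 of the 678 (0.885%). The part of repeated sequence in these p-values was not tested.

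Other sites with small p-values lay at single genes. The site at Chadl, a chondroadherin-like gene, had a p-value of 4.67e-31 and was 4450 bp wide. Sites at Myo18a, a myosin gene (2900 bp, 7.37e-28), Hoxb1 (3200 bp, 2.90e-26), Sphk1, the sphingosine kinase 1 gene (3900 bp, 2.50e-25) and Hoxb13 (3250 bp, 7.40e-25) had larger p-values. At the other end, the 5 largest p-values belonged to Lrrc24 (1.04e-06), Nr2f2 (6.13e-07), the lincRNA Gm16010 near Spsb4 (5.73e-07), the lincRNA 1500016L03Rik beside Lhx1 (4.51e-07) and Irx4 (2.90e-07). The stated cutoff for windows was 1e-07, and 18 sites lay above it. The median width was 1350 bp (quartiles 1100 and 1750, range 1000 to 4850), and 201 sites (29.6%) had a p-value of at most 1e-10, 47 of at most 1e-15 and 14 of at most 1e-20. Wider sites had smaller p-values, as both come from the same joined windows.

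**Figure D1:**
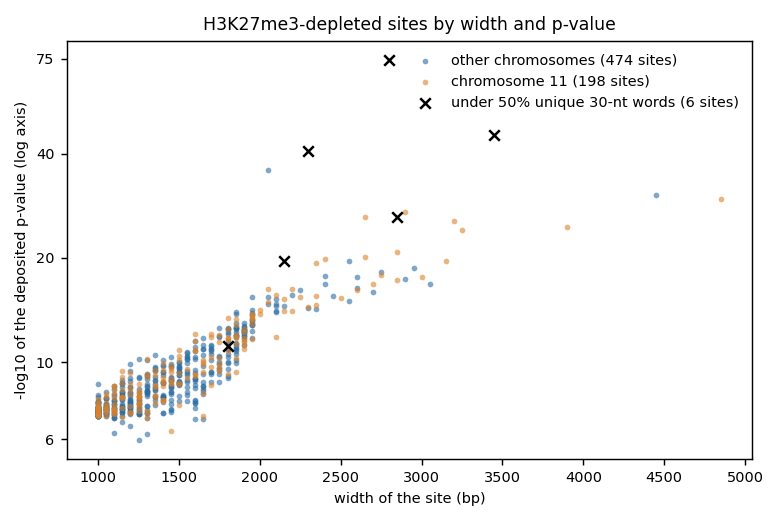
Each point is 1 of the 678 H3K27me3-depleted sites, with its width in bp on the x axis and -log10 of the deposited p-value on a logarithmic y axis; crosses mark the 6 sites with under 50% unique 30-base words. Most sites lie between 1000 and 2000 bp with -log10 values under 15, and 3 of the crosses have the 3 smallest p-values.

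The center of 423 of the 678 sites (62.4%, 58.7 to 66) lay within 2 kb of a transcript start in GENCODE vM1, which was called a promoter. A further 165 (24.3%, 21.3 to 27.7) lay elsewhere inside a gene and 90 (13.3%, 10.9 to 16) between genes. The nearest start was that of a protein-coding gene at 376 of the 423 promoter sites, of a processed transcript at 23, of a lincRNA at 18, of a microRNA at 4 and of an snRNA at 2. By the annotation under the center, 205 sites (30.2%) lay in a coding exon, 247 (36.4%) in an intron, 50 (7.37%) in a UTR, 30 (4.42%) in a noncoding exon and 146 (21.5%) outside genes. Gene body sites were more frequent than among Suz12 sites (24.3% against 15%) and Pcl3 sites (15.6%), with intervals that did not overlap. Median -log10 p differed little by position, at 8.49 for promoter, 8.63 for gene body and 8.04 for intergenic sites. Sites in coding exons had a median of 8.88 and a median width of 1500 bp, against 8.30 and 1250 bp in introns.

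The sites stood off the start of the gene. The median distance from a site's center to the nearest transcript start was 1297 bp (quartiles 518 and 4282), against 444 bp for Suz12 sites, 412 bp for Suz12-depleted sites and 862 bp for Pcl3 sites. The center lay within 500 bp of a start at 23.7% of H3K27me3-depleted sites and at 52.4% of Suz12 sites. Of the 399 sites within 2 kb of a protein-coding start, 288 (72.2%, 67.6 to 76.3) lay downstream of it, a share close to that of Suz12 sites (72.6%). The median position was 508 bp downstream of the start for H3K27me3-depleted sites and 159 bp downstream for Suz12 sites. Distances were compared in 432 pairs, where Suz12 was depleted within 2 kb of an H3K27me3-depleted center and a protein-coding start lay within 5 kb. In 285 of them (66%, 61.4 to 70.3) the H3K27me3-depleted center was farther from the start than the Suz12-depleted center. The median distances in the pairs were 853 and 598 bp and the median widths 1400 and 2250 bp. These intervals are of unlike kinds. A Suz12-depleted site carries the p-value of the same site in the Suz12 binding list, and both lists have a largest width of 16950 bp. It is thus a binding site listed as depleted, whereas an H3K27me3-depleted site marks where reads fell. The smallest widths were 400 bp for Suz12-depleted and 1000 bp for H3K27me3-depleted sites.

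The same offset was seen around the starts of 3496 protein-coding genes with a Suz12-depleted site within 2 kb, a set that was not chosen by H3K27me3. Here each gene had 1 start, that of its gene record, whereas the counts of genes below take any transcript start. Coverage by Suz12-depleted sites was highest 250 bp downstream of the start, where it reached 92.2% of starts, and fell to 59.8% at 1000 bp. Coverage by H3K27me3-depleted sites was 3.63% at the start and highest at 1000 bp downstream, at 5.52%. Relative to their maxima, coverage 1000 bp upstream was 25.9% for H3K27me3-depleted and 21.3% for Suz12-depleted sites, and 1500 bp downstream 74.1% and 36.5%.

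**Figure D2:**
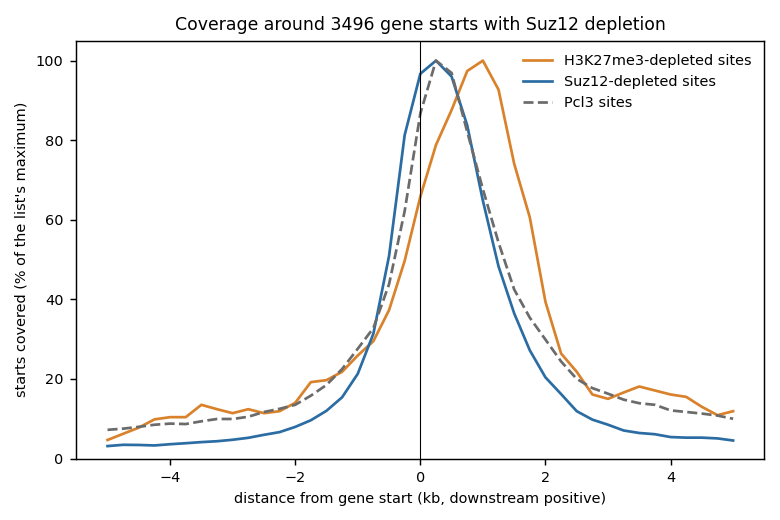
The x axis is the distance from the gene start in kb, positive downstream, and the y axis the percent of 3496 starts covered by a site of each list, scaled to that list's maximum. Suz12-depleted and Pcl3 sites are highest at 250 bp downstream and H3K27me3-depleted sites at 1000 bp downstream. Suz12-depleted sites are binding sites listed as depleted, and H3K27me3-depleted sites mark where reads fell.

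A gene was counted as hit when the center of a site lay within 2 kb of any of its transcript starts. A value in parentheses after a gene is the deposited p-value of its site, the smallest where there were several. Of 22225 protein-coding genes, 394 were hit, or 1.77%. Outside chromosome 11 the share was 1.34% (276 genes) and on chromosome 11 it was 7.16% (118 of 1648). Among the 5380 protein-coding genes with a Suz12 site at the start 7.06% were hit, with 5.48% outside chromosome 11 and 21.8% on it. By comparison, 17.2% of all protein-coding genes had a Suz12-depleted site at the start, and of these 3817 genes 367 (9.61%, 8.72 to 10.6) were hit. Of the 394 hit genes, 380 (96.4%) were bound by Suz12 at the start, 367 (93.1%) were in the Suz12-depleted list there, and 276 (70.1%) were bound by Pcl3.

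The excess on chromosome 11 bears on every count of genes, and values with and without it are given where it matters. Chromosome 11 carried 198 of the 678 sites (29.2%), and 19.5% of its Suz12 sites had a decrease within 2 kb against 2.84% to 9.19% on the other autosomes. Its sites were spread along its length, with 5.88% to 24.8% of Suz12 sites affected in segments of 10 Mb. They had a median -log10 p of 9.04 against 8.23 elsewhere. On chromosome X 1 site was listed, at Dcaf12l1, and 0 of 167 Suz12 sites had a decrease within 2 kb (upper bound 2.25%). Copies of a chromosome and reads per library are not in the lists, so a difference between the ESC clones that concerns chromosome 11 and an effect of the hairpin cannot be told apart.

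The share of genes hit was higher where Suz12 binding at the start in scramble cells was stronger. With the 5380 Suz12-bound genes in 5 equal groups by the p-value of binding, the share hit was 0.929% in the weakest group, then 1.86%, 4.55% and 11.2%, and 16.8% (14.7 to 19.2) in the strongest. Outside chromosome 11 the weakest and strongest groups had 0.638% and 12.7%. Suz12 sites with a decrease of H3K27me3 within 2 kb were wider than the others, with medians of 1900 and 1050 bp. Strength and width of Suz12 sites thus moved with the hits, and their part in the detection of a decrease was not tested.

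CpG density went the other way. The 678 sites held a median of 4.24 CpG per 100 bp (quartiles 3.23 and 5.33) and the 8876 Suz12 sites 5.41 (4.12 and 7.14), and GC content was 57.3% and 60%. The 654 Suz12 sites with decreased H3K27me3 within 2 kb had a median of 4.81 CpG per 100 bp, against 5.50 for the other 8222. The share with a decrease was 8.99% to 11% in each bin of Suz12 sites under 6 CpG per 100 bp, 6.54% between 6 and 7, 3.95% between 7 and 8, and 1.49% (0.995 to 2.23) in the 1543 sites with 8 or more. Pou3f1 was one of these densest sites, with 8.61 CpG per 100 bp over 4450 bp and the nearest decrease 834375 bp away. Whether a Suz12 site without a decrease carried H3K27me3 in scramble cells is not in the lists.

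The contrast held within each of 5 groups of Suz12 sites by strength when sites were split at 6 CpG per 100 bp, a value chosen after the data were seen. In the weakest group 4.47% of CpG-poorer and 0.829% of CpG-richer sites had a decrease, and in the strongest 19.5% (17.3 to 21.9) and 10.6% (8.43 to 13.2). Median widths within these groups were similar, at 550 and 500 bp in the weakest and 2800 and 2550 bp in the strongest. Over all Suz12 sites the shares were 9.83% and 3.79%, and outside chromosome 11 7.97% and 3.12%. With CpG counted in the 500 bp around the center in place of the whole site, the shares were 9.30% and 6.14%. Among the H3K27me3-depleted sites, promoter sites held a median of 4.50, gene body sites 3.89 and intergenic sites 3.57 CpG per 100 bp.

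**Figure D3:**
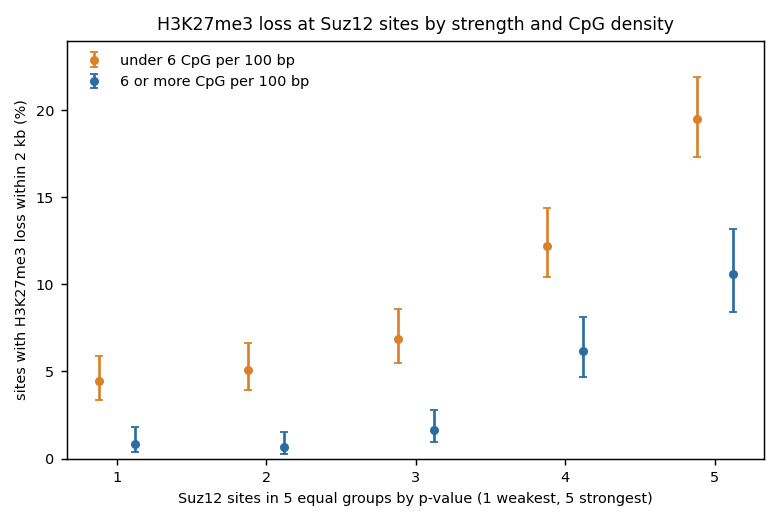
The x axis gives 5 equal groups of the 8876 Suz12 sites by binding p-value, from weakest to strongest, and the y axis the percent with an H3K27me3-depleted center within 2 kb; points are shares, and bars are 95% Wilson intervals. In every group the sites with 6 or more CpG per 100 bp lie below those with fewer, from 0.829% against 4.47% to 10.6% against 19.5%.

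The Hox genes, which set position along the body axis, were hit at 12 of 39 (30.8%), against 1.77% of all protein-coding genes. All but 1 of the 39 had Suz12 at the start, and 31.6% of those 38 were hit (19.1 to 47.5). The clusters differed. In the Hoxb cluster, on chromosome 11, 15 sites covered 27100 bp, or 15.6% of its span, and 6 of 10 genes were hit, namely Hoxb1, Hoxb5, Hoxb6, Hoxb8, Hoxb9 and Hoxb13. The Hoxa cluster had 5 sites over 7.06% of its span and 5 of 11 genes hit, namely Hoxa3, Hoxa5, Hoxa6, Hoxa7 and Hoxa10. The Hoxc cluster had 3 sites and none of 9 genes hit, and the Hoxd cluster had 1 site and 1 of 9 genes hit, Hoxd4. Suz12-depleted sites were spread far more evenly, with 19 in Hoxa, 28 in Hoxb, 22 in Hoxc and 22 in Hoxd, and lay at 38 of the 39 starts.

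Within Hoxb the hit genes were at the ends and in the middle. At Hoxb1, the most 3′ gene, and Hoxb13, the most 5′, the p-values were 2.90e-26 and 7.40e-25. The sites nearest to Hoxb9, Hoxb8, Hoxb6 and Hoxb5 had p-values of 1.25e-08, 6.32e-08, 5.95e-10 and 9.32e-10. Hoxb7 and Hoxb4 had a center 3071 and 2173 bp from their start, just past the 2 kb rule, and Hoxb3 and Hoxb2 none within 8815 and 14804 bp. A run of 9 sites from 96112301 to 96143000 covered 47.9% of the stretch from the predicted gene Gm53 to Hoxb9 and held the strongest site between the ends, at Mir196a-1 (7.02e-21). In Hoxa the p-values were 3.47e-11 at Hoxa10, 5.68e-11 at Hoxa3 and Hoxa6, which share a site, 1.22e-08 at Hoxa5 and 7.59e-08 at Hoxa7. The Hoxa3 record runs from 52113358 to 52163338, across Hoxa4, Hoxa5 and Hoxa6. Its hit rests on a far upstream start beside that of Hoxa6. Hoxa2 was 34963 bp from the nearest site. Without chromosome 11, 6 of 29 Hox genes were hit (20.7%), beside 1.34% of all genes.

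**Figure D4:**
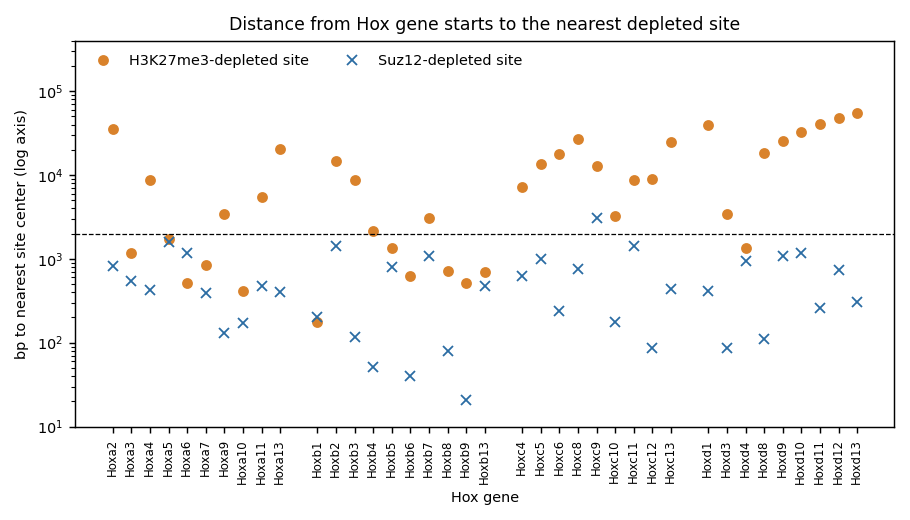
For 38 Hox genes, the y axis (logarithmic) gives the distance in bp from its start to the center of the nearest H3K27me3-depleted site (circles) and Suz12-depleted site (crosses), with a dashed line at 2000 bp. The crosses lie below the line at every gene shown but Hoxc9, and 12 circles do, 6 of them in Hoxb and 5 in Hoxa.

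Other transcription factor families were hit to different extents, to be read against 1.77% of all and 7.06% of Suz12-bound genes. The lists were drawn up with earlier results of these data known. Dlx and Msx homeobox genes, which act in limb and face, were hit at 4 of 9, and at 2 of 7 outside chromosome 11 (Dlx4, 5.26e-10; Msx2, 2.35e-09; Dlx3; Msx3). Developmental bHLH genes were hit at 8 of 54, or 5 of 51 outside chromosome 11, with the smallest p-values at Hes7, an oscillating gene of the segmentation clock (5.14e-14), Hand1, a heart and trophoblast factor (1.64e-13), Bhlhe23 (3.44e-10) and Twist2 (4.25e-10). Gata genes were hit at 2 of 6, Gata3 (5.16e-12) and Gata4 (2.29e-10), an endoderm and heart factor. T-box genes were hit at 3 of 17, or 2 of 14 outside chromosome 11, Tbx3 (1.95e-10), Tbx4 of the hindlimb (5.85e-10) and Eomes (4.81e-08). LIM homeobox genes were hit at 2 of 12, or 1 of 11 outside chromosome 11 (Lhx3, 9.27e-14; Lhx1, 2.96e-09). Nkx genes were hit at 2 of 14 (Nkx6-2, 2.20e-09; Nkx6-1, 6.64e-08), Sox genes at 2 of 19, or 1 of 16 outside chromosome 11 (Sox8, 6.04e-11; Sox9, the chondrocyte and testis factor, 4.17e-08), Pax genes at 1 of 9 (Pax5 of B cells, 6.94e-11) and Iroquois genes and the sine oculis relatives at 1 of 12 (Irx2, 3.29e-08). The remaining patterning homeobox genes were hit at 5 of 70, led by Barhl1 (4.90e-12), Rax, the retina factor (2.64e-11), and Pitx1 (2.01e-09).

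Lists in which many genes had strong Suz12 binding differed in the share hit. Of the 8 Dlx and Msx genes with Suz12 at the start 6 had a binding p-value listed as 0, too small for the number format, and 4 were hit. Of 5 such Gata genes 4 had a p-value of 0 and 2 were hit. Of 30 forkhead genes with Suz12 at the start, 1 was hit, Foxp4 (9.22e-12), or 3.33% (0.591 to 16.7), although 15 of the 30 had a binding p-value of 0. The 60 Suz12-bound genes of the remaining patterning homeobox list included 38 with a p-value of 0, and 8.33% were hit (3.61 to 18.1). Zic and Gli genes were hit at 0 of 11, with 9 bound by Suz12 (upper bound 29.9%). Median CpG density at the Suz12 sites was 6.44 per 100 bp for forkhead genes, 4.77 for the remaining patterning homeobox genes, 6.00 for Zic and Gli genes and 3.80 for Hox genes. It did not order the lists by share hit. Imprinted genes had a median of 6.87 with 29.4% of the Suz12-bound genes hit. For Wnt receptors and antagonists the values were 6.76 and 22.7%.

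Wnt signalling genes were prominent by count. Wnt ligands, secreted growth factors of patterning and stem cell maintenance, were hit at 7 of 19, or 41.2% (21.6 to 64) of the 17 with Suz12. The smallest p-values at their starts were those of Wnt3, needed for gastrulation (3.82e-16), Wnt7b (1.85e-15), Wnt9a (4.40e-14) and Wnt3a (5.76e-12). All 4 ligand genes of chromosome 11, Wnt3, Wnt3a, Wnt9a and Wnt9b, were hit, and 3 of the 15 elsewhere, Wnt7b, Wnt5a and Wnt11. Wnt receptors and antagonists were hit at 5 of 26, namely the Frizzled receptors Fzd10 (1.92e-18), Fzd2 (3.01e-16), Fzd4 (5.92e-13) and Fzd9 (2.47e-11) and the antagonist Sfrp2 (4.05e-08), 4 of them outside chromosome 11. Other signalling lists had fewer hits. TGF-beta family genes were hit at 2 of 41, or 1 of 39 outside chromosome 11 (the BMP antagonist Nog, 1.07e-08, and Bmp1, 4.46e-08), Fgf genes at 1 of 26 (Fgf14, 5.49e-09), Hedgehog genes at 1 of 11 (Ihh, 3.24e-09) and Notch genes at 1 of 13 (the ligand Dll1, 2.17e-10).

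Genes for channels, receptors and transporters were also on the list. Potassium channel genes were hit at 12 of 94 (12.8%), with the smallest p-values at Kcnj3, a G-protein-gated inward rectifier (1.59e-17), Kcnf1 (1.63e-11), Kcnk13 (1.25e-10) and Kcnj5 (9.45e-10). Of the 12, 11 lay outside chromosome 11 and 11 had Suz12 at the start, the other being Kcnv2 (2.45e-09). Calcium and sodium channel genes were hit at 0 of 39, of which 23 had Suz12 (upper bound 14.3%). Glutamate and GABA receptor genes were hit at 3 of 47, or 2 of 39 outside chromosome 11 (Grik3, 3.24e-13; Grin2c, 1.36e-10; Grik4, 4.38e-10). Solute carriers were hit at 6 of 327, or 3 of 297 outside chromosome 11, near the share of all genes, led by Slc16a11 (4.94e-17), Slc16a3 (1.71e-14) and Slc32a1, the vesicular transporter of GABA and glycine (1.19e-12). Guidance genes were hit at 3 of 71 (Ntn3, 1.33e-09; Epha8, 1.84e-08; Sema3f, 3.30e-08) with 59 bound, collagens at 2 of 43 (Col7a1, 1.27e-08; Col14a1, 9.73e-08), and cadherins and protocadherins at 3 of 59 (Pcdhgc5, 5.81e-10; Pcdha11, 2.62e-09; Pcdha3, 3.77e-08).

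Genes tied to the ESC state and to Polycomb itself were scarce. Pluripotency genes were hit at 2 of 21, Prdm14, a germ cell and naive state regulator (1.18e-13), and Tbx3 (1.95e-10). PRC2 and Polycomb-like genes were hit at 0 of 11, with 1 bound by Suz12. Imprinted genes, expressed from 1 parental allele, were hit at 5 of 36: Dio3 (1.27e-11), Dlk1 (1.16e-10), Peg10 and Sgce, which share a site (1.29e-10), and Ascl2 (9.74e-08). Of the 17 imprinted genes with Suz12 29.4% were hit (13.3 to 53.1), with 5 of 5 hits outside chromosome 11. Cdk inhibitor genes were hit at 0 of 7, 6 of them Suz12-bound, keratins at 0 of 46, suppressors of cytokine signalling at 0 of 8 and ribosomal protein genes at 0 of 80. Of 1087 olfactory receptor genes 1 was hit, Olfr222 of chromosome 11 (4.64e-08). Numbered zinc finger genes were hit at 4 of 340 (1.18%), led by Zfp579 (1.29e-09) and Zfp865 (6.73e-09), actin and myosin genes at 2 of 19 (Acta1 and Myh7b) and dual specificity phosphatases at 1 of 24 (Dusp4, 3.86e-16).

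**Figure D5:**
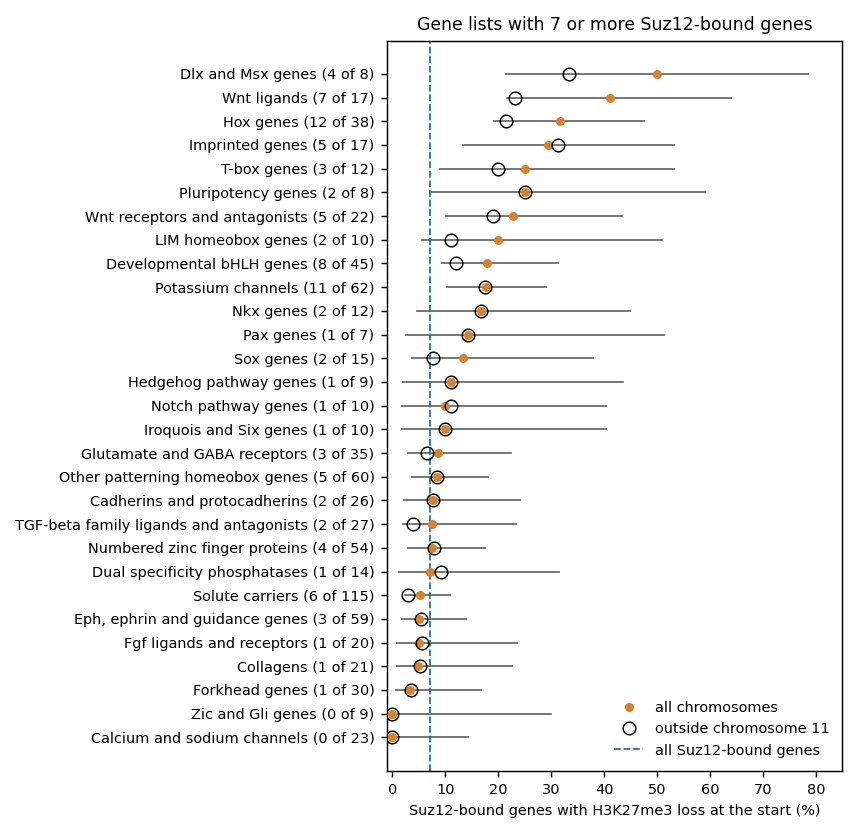
Each row is a gene list with at least 7 Suz12-bound genes; the x axis is the percent of those genes with an H3K27me3-depleted site at the start, with filled points and 95% Wilson intervals over all chromosomes, counts in the row label and open points for the genes outside chromosome 11. The dashed line is the share of all Suz12-bound genes, 7.06%. The filled points of Dlx and Msx, Wnt ligand and Hox genes lie highest, from 50% to 31.6%, and without chromosome 11 these lists have 2 of 6, 3 of 13 and 6 of 28 hit, while imprinted genes have 5 of 16 and pluripotency genes 2 of 8.

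A set of 14 hit genes had no Suz12 center within 2 kb of the start. These were Acta1, the skeletal muscle actin gene (4.49e-11), Tcap, which caps titin in the sarcomere (1.11e-10), Ccin (1.79e-10), Kcnv2, Myadml2 (5.28e-09), Gas2l2 (1.00e-08), Col7a1, Sdr39u1 (1.58e-08), Dcaf12l1 (3.09e-08), Pcdha3, Olfr222, Rltpr (6.05e-08), and Gm10719 and Gm10720, which share a site (2.63e-20). The rule on distance decided for some of these genes. Acta1 had a Suz12-depleted center 2251 bp from its start. The Pcdha3 site had a Suz12 center 200 bp from its own center. By contrast, the site shared by Gm10719 and Gm10720 lay 8000 bp from the nearest Suz12 center.

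Several genes held more than 1 site. Within the gene or 2 kb of it, 505 protein-coding genes had 1 site, 34 had 2, 13 had 3 and 5 had 4 or more. Wnt3 had 5 sites, of which the 4 from 103667451 to 103675700 covered 81.2% of that stretch. A further and more significant site lay upstream, beyond the 2 kb limit, at 2664 bp from the start (1.46e-20). Zfhx3, a zinc finger homeobox gene, had 5 sites, 1 at the start (1.25e-07), a pair 76781 and 79781 bp inside (1.58e-14 and 1.00e-12) and a pair 232606 and 235431 bp inside (2.57e-08 and 4.45e-11). The record of Pcdhgc5 had 5 sites and that of Gm20388, which spans several genes, 6. Gm53 had 4. Runs of neighbouring sites, each closer than 10 kb to the next, reached past the genes themselves. The run around Lhx1 had 5 sites (1.69e-14 to 4.51e-07, 67.4% of an 11050 bp stretch), that around Scarf2 4 (2.07e-15 to 1.19e-07) and that around Neurod2, a neuronal bHLH gene with 1 site of its own, 4 (1.87e-10 to 1.16e-08). A run of 5 sites lay at Cbx8, a gene of Polycomb repressive complex 1, the complex that reads H3K27me3, and beyond its start (1.44e-12 to 7.20e-08). The nearest center was 3135 bp from the start of Cbx8.

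The 13 genes with 3 sites included Lhx1, a LIM homeobox gene of the organizer and kidney, Scarf2, a scavenger receptor gene, Tbx4, Hoxa3, Hoxb9, Rfx4, a factor of the neural tube, and Slc32a1 (9.48e-15 to 4.69e-09), Grin2c, a glutamate receptor subunit (1.36e-10 to 4.29e-08), and Cntnap1, a paranodal junction gene. The others were Myh7b, a slow myosin, Myo18a, Ptrf, a caveolar coat gene (2.17e-14 to 4.65e-08), and Sfi1 (2.66e-18 to 2.71e-08). The record of Hoxa3 spans Hoxa4, Hoxa5 and Hoxa6, so its sites are not its own alone. With sites closer than 10 kb joined, the 678 sites formed 583 runs, of which 521 were single sites, 18 had 3 or more sites and 8 had 4 or more. Of the 18, 11 were on chromosome 11.

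MicroRNA genes were hit at 6 of 542, or 1.11%, counted within 2 kb of the start of the annotated record. That record holds the short microRNA precursor, and its start is not the promoter of the primary transcript. The mature sequences are from RefSeq, where all 10 microRNA genes named here matched, and lie in the mm9 records; the seed, bases 2 to 8, is in capitals. For each gene 1 arm is shown, because genes that share a seed lay at different distances from a site.
miR-196a-5p: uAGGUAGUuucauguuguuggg
miR-196b-5p: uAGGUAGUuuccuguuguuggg
miR-212-3p: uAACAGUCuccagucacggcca
miR-132-3p: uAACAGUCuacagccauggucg
miR-10a-5p: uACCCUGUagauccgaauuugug
miR-34a-5p: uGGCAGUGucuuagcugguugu
miR-152-3p: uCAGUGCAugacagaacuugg
miR-193a-3p: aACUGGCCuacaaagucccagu
miR-1199-5p: uCUGAGUCccggucgcgcgg
miR-1247-5p: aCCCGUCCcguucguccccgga
The seed AGGUAGU is shared by miR-196a-5p and miR-196b-5p, and the seed AACAGUC by miR-212-3p and miR-132-3p.

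Mir196a-1, between Hoxb9 and Hoxb13, lay 553 bp from a center (7.02e-21), and Mir196b, of the Hoxa cluster, 7464 bp from one. Mir212 and Mir132, neighbours on chromosome 11, shared 1 site (3.89e-11), at 1840 and 2117 bp, so that 1 passed the 2 kb rule. Mir152 lay 32 bp from a center (9.79e-13), Mir193 71 bp (6.84e-08), Mir1199 7 bp (2.73e-16) and Mir1247, beside Dio3, 1986 bp (1.27e-11). Mir10a, in the Hoxb cluster, was 2654 bp from the nearest center (6.59e-10) and Mir34a, a p53 target, 20238 bp (4.15e-16). The paper used annotated microRNA promoters. It reports decreases by ChIP-qRT-PCR at Mir196a-1, Mir196b, Mir10a, Mir132 with Mir212, and Mir34a. A record past the 2 kb rule is therefore not shown to be unaffected. Each of Mir152, Mir193 and Mir1199 had a Suz12-depleted center within 346 bp, the farthest being that of Mir193.

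The genes that the study assayed by ChIP-qRT-PCR were found on both sides of the rule. Those assays differed in target. H3K27me3 or Suz12 was assayed at the Hox genes, Hand1 and Dusp4, where the paper reports a decrease. Suz12 was assayed at Tle3, Tns1 and Tmem151a, which the paper reports as unaffected by Pcl3. H3K4me3 was assayed at Acta1, Ebf2, Otx2, Pcdh7 and Pmp22 among others. For Hand1, Acta1 and Pmp22 the paper also reports a decrease of both Suz12 and H3K27me3. Hand1 (324 bp from its start, 1.64e-13), Hoxb13 (695 bp), Ebf2, a neuronal and adipocyte factor (771 bp, 8.96e-08), Dusp4, a MAP kinase phosphatase (974 bp, 3.86e-16), Hoxa3 (1191 bp) and Acta1 (1976 bp, 4.49e-11) had a center within 2 kb. The distance for Hoxa3 is from its far upstream start, beside Hoxa6, and was not compared with the assayed position. Hand1 had a more significant site at 2649 bp (7.07e-17), in its run of 3. Hoxb7 (3071 bp) and Tmem151a (3382 bp, 9.95e-09) were just outside. The site nearest to Tmem151a lay inside another gene, Cd248, which it hit. Pmp22, a myelin gene, Tns1, Tle3, Otx2, a forebrain factor, and Pcdh7 had no site within 787930 bp. Suz12-depleted centers nonetheless lay within 496 bp of the starts of Pmp22, Tns1, Otx2 and Pcdh7. The H3K27me3 list thus holds no decrease near Pmp22, where the paper reports one. The Suz12-depleted list holds centers 329 bp from Tns1 and 162 bp from Tmem151a, which the paper's assay found unaffected. What sets the lists and assays apart was not tested.

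The 5 sites farthest from any transcript start were 134823 bp from a U1 gene, 130466 bp from SNORA17, 126586 bp from 1700012B15Rik, 103111 bp from Psd2 and 95978 bp from Spred2. A Suz12 center lay within 750 bp of the sites near U1, 1700012B15Rik and Psd2, and none within 392425 bp of that near SNORA17 or 503900 bp of that near Spred2. Over the whole list, 77.4% of the bases were shared with Suz12 sites and 47.8% with Pcl3 sites, and 619 sites (91.3%, 88.9 to 93.2) shared at least 1 base with a Suz12 site. For the 597 sites with a Suz12 center within 2 kb, the median offset between the H3K27me3-depleted and Suz12 centers was 375 bp. The 81 sites without a Suz12 center within 2 kb were at promoters in 34.6% of cases and had 3.05 CpG per 100 bp, against 4.38 for the other 597. Of the 81, 35 (43.2%) lay on chromosome 11, against 29.2% of the whole list.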

How the data were processed

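The series holds 10 ChIP-seq and input libraries of mouse ESCs. The authors sequenced single 30-nt reads, aligned them to mm9 with Bowtie (version not given in the sources used here), kept uniquely aligned reads, scaled paired libraries to equal background and scanned 400 bp windows. Windows past a Skellam p-value of 1e-07 were joined. The deposited values are 1 p-value per site in each of 4 lists; totals and reads per site are not in them, so the depth is unknown from these lists. Equal scaling assumes that background is alike in both libraries.

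Starts and exons were taken from GENCODE vM1 (pseudogenes left out) and sequence from the mm9 genome, including its unplaced contigs. A site was placed by its center, with 2 kb as the limit. Words of 30 bases were counted on both strands of mm9. Positions are 1-based. P-values that the authors wrote as 0 were ranked as smallest. No test was made, as each condition has 1 library; intervals are 95% Wilson intervals. Members and gene lists were chosen with earlier results of these data known. Named were the 10 smallest and 5 largest p-values, the 5 widest and 5 farthest sites, genes with 3 or more sites, runs of 4 or more, 2 to 4 genes per list by p-value, all hits of the Hox, microRNA, PRC2, pluripotency and imprinted lists, and the genes assayed by ChIP-qRT-PCR. Additional genes were named after their values were seen: Pou3f1, the hit genes without Suz12, and further genes named with a site or group. Of the genes and sites due by these rules, 1 site and 1 gene are not reported here. The alternatives concerned distances, starts, p-values, chromosomes and repeats. Scripts were tested on simulated data. Python 3.11.15, pandas 2.3.3, scipy 1.17.1 and pysam 0.24.0 were used.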

Additional observations from a re-analysis of the deposited data

How the results depend on the processing

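Of 35 alternative values 24 stayed within the main interval, or within 1.5 times for a count, and 11 moved. The share of sites at promoters (62.4%) was 42.3% at 1 kb, 76.4% at 5 kb, 67.4% with any base within 2 kb and 45.7% with gene record starts of protein-coding genes only. The share of Suz12-bound genes hit (7.06%) was 4.78% at 1 kb, 8.59% at 5 kb, 5.63% with gene record starts, 2.30% at p-values of at most 1e-10 and 5.48% without chromosome 11. At p-values of at most 1e-10 the hit genes numbered 127 in place of 394, and the share of Hox genes hit was 15.4% in place of 30.8%. These alternatives widen or narrow the rule, or use fewer sites, by construction. Leaving out chromosomes X and Y, or the sites with over 30% of sequence recurring within 50 kb, kept each of the 4 values within those limits. Runs numbered 606 at 5 kb and 561 at 20 kb, against 583. No paired analysis was possible because the lists hold 1 p-value per site and each condition has 1 H3K27me3 library. Depth limits these lists in a way that cannot be measured here: a gene without a site may have lost the mark below the threshold. It may also have carried no mark to lose, as none of the lists gives H3K27me3 sites in scramble cells.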
